A study of Homo sapiens with 24 samples.

Results

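The mRNAs of 10 genes of mitochondrial protein quality control, HSPD1, HSPE1, HSPA9, TRAP1, DNAJA3, LONP1, CLPP, CLPX, YME1L1 and SPG7, were followed among the 68458 gene identifiers of the study. They were taken by symbol from a list drawn up with earlier results of these data known, with no threshold on their values, and all 10 were measured in all 24 libraries and passed the filter on low values. RNA was sequenced from cells labelled as the human neuroblastoma line SH-SY5Y, a common model of dopaminergic neurons. The groups were shMCART1 (a short hairpin RNA against MCART1), shScramble (a scrambled hairpin), oeMCART1 (an MCART1 overexpression construct) and oeNC (its control construct), each with 0.5 mM MPP+ for 24 h and without it, and each with 3 libraries. MCART1 is an earlier name of SLC25A51, which encodes the inner-membrane carrier that supplies the mitochondrial matrix with NAD+, and MPP+ is a toxin that blocks respiratory complex I. The labels do not say whether replicates were separate cultures, or whether a line was 1 clone, so p-values measure only the spread between these samples.

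Proteins imported into the mitochondrial matrix arrive unfolded. They are pulled in and first bound by the mitochondrial HSP70, and many are then folded inside the HSP60-HSP10 chaperonin, while proteases driven by ATP remove those that misfold or are no longer needed. When unfolded proteins build up in the matrix, cells can raise the genes for these chaperones and proteases, which is known as the mitochondrial unfolded protein response.

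The files go partly against the cell line label. Of 6 markers of adrenergic neuroblastoma, TH was under 0.1 TPM in each MPP+ group, and PHOX2A and DBH were not analysed here in those groups. In each of the 4 untreated groups PHOX2A, DBH and TH were under 0.1 TPM, and HAND2, GATA3 and ISL1 were at a few TPM in both conditions. The summed level was 7.68 to 13.55 TPM over the MPP+ libraries, for the 4 markers read there, and 8.99 to 14.02 TPM over the untreated ones, for all 6. The 3 markers fixed for HEK293T, the other line named in the growth protocol, summed to 1.94 to 3.78 TPM with MPP+ and to 3.02 to 6.0 TPM without. With MPP+, the 4 blood and bone marrow markers read there summed to 8.51 to 24.57 TPM. All 5 summed to 21.22 to 41.79 TPM without it. HBA1 made up most of these sums, at 8.18 to 24.31 TPM with MPP+ and 20.94 to 41.72 TPM without. PTPRC and HBB averaged under 0.1 TPM in every group, and MPO too in the untreated ones. The 4 fibroblast markers summed to 2.65 to 13.45 TPM with MPP+ and to 11.72 to 27.88 TPM without. COL1A1 made up most of these sums, at 1.78 to 12.3 TPM with MPP+ and 10.58 to 26.57 TPM without. COL1A2 was under 0.1 TPM throughout. The part of these differences in the results was not tested.

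The targeted gene followed the construct labels. SLC25A51 averaged 5.33 ± 0.42 TPM in shMCART1 and 7.91 ± 0.90 TPM in shScramble with MPP+, and 7.28 ± 2.02 and 10.95 ± 0.38 TPM in these cells without it (mean ± SD, n = 3 each, as are all values given so). It averaged 936 ± 69.0 TPM in oeMCART1 and 8.49 ± 0.84 TPM in oeNC with MPP+, and 683 ± 12.3 and 31.64 ± 3.48 TPM without. Messenger RNAs of the mitochondrial genome took 0.285 to 0.724% of TPM in the group means with MPP+ and 4.44 to 8.70% without, with the highest share in untreated oeNC. TPM keep no depth, so sequencing depth is unknown. The libraries of a group correlated at 0.970 to 0.988, and 13022 to 14306 genes reached 1 TPM per library. In bulk RNA, fewer cells of a kind and less RNA per cell cannot be told apart.

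Promoter windows of RefSeq (GRCh38.p14, 250 bases before to 50 after a start) were at hand for 8 of the 10 genes. They are shown for the 3 chaperone genes that were called in the same direction as each other in every comparison as deposited. Some of these calls ended under other settings, as given below. HSPD1 and HSPE1 lie head to head on chromosome 2, with RefSeq starts 104 bases apart, so the pair shares 1 stretch of promoter DNA. The first line is the HSPE1 window on the plus strand (chr2:197500129-197500428). The second is the window of a further HSPD1 start on the minus strand (chr2:197499791-197500090), and the third is the HSPA9 window on the minus strand (chr5:138575352-138575651). Capitals mark matches to CGCANGCG, the kind of site bound by NRF1, a factor known for nuclear genes of mitochondria, in the first line, and to the paired heat shock elements TTCNNGAA and GAANNTTC in the others.
HSPE1: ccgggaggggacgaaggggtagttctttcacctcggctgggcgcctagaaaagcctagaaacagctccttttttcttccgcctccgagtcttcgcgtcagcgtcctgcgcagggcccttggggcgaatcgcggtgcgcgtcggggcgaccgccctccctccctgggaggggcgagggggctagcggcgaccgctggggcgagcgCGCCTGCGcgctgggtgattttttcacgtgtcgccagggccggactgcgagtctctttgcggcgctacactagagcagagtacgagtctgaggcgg
HSPD1: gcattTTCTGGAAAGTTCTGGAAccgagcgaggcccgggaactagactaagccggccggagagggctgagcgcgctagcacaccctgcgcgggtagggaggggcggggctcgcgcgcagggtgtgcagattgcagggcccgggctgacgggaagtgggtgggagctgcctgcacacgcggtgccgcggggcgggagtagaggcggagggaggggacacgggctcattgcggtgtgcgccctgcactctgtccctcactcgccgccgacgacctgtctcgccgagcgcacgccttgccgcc
HSPA9: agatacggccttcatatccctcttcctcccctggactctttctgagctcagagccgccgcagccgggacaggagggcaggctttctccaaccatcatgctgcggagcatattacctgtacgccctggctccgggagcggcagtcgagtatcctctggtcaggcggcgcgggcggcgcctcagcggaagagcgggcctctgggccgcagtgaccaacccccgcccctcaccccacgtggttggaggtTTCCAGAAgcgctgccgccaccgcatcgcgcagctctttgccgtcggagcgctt

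The NRF1-type match in the HSPE1 window begins 46 bases before that start, and the same DNA lies 66 bases before the other HSPD1 start, read on the opposite strand. In the further HSPD1 window, 3 heat shock matches overlap one another within bases 6 to 23. The HSPA9 match spans the start site itself. Searching both strands, 13.49% of all 35116 RefSeq windows held a heat shock match of either form and 10.04% the NRF1-type one. CLPX, DNAJA3, SPG7 and a second LONP1 window also held the NRF1-type match, and TRAP1 held none of the motifs searched. TGATGNAA, a C/EBP-ATF response element form, occurred in 3.62% of windows and in none of the members'. Such matches describe letters and are not evidence of binding.

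HSPD1 and HSPE1 encode the HSP60 and HSP10 subunits of the matrix chaperonin. HSPE1 was the most abundant of the 10 mRNAs in every group. HSPD1 came next, except in shMCART1 in both conditions and in oeNC with MPP+, where TRAP1 stood above it. Both chaperonin mRNAs were lower in shMCART1 than in shScramble and higher in oeMCART1 than in oeNC, with MPP+ and without. HSPD1 had 242, 238 and 258 TPM in shMCART1 with MPP+, against 353, 383 and 384 TPM in shScramble with MPP+. Among untreated cells HSPD1 had 327, 437 and 253 TPM in shMCART1, against 592, 712 and 592 TPM in shScramble. In neither condition did the groups overlap. The log2 change was -0.60 ± 0.08 (SE, limma adjusted p = 0.000379) with MPP+ and -0.93 ± 0.19 (limma adjusted p = 0.0144) without.

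With the overexpression construct, HSPD1 had 464, 425 and 375 TPM in oeMCART1 with MPP+, against 253, 259 and 218 TPM in oeNC with MPP+. Among untreated cells HSPD1 had 795, 842 and 812 TPM in oeMCART1, against 309, 506 and 412 TPM in oeNC. Each oeMCART1 library stood above every oeNC library of its condition, and the untreated oeNC libraries were the more scattered. The log2 change was 0.79 ± 0.08 (limma adjusted p = 8.19e-06) with MPP+ and 1.02 ± 0.19 (limma adjusted p = 0.00444) without, about 1.73-fold and 2.03-fold on the log2(TPM + 1) scale.

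HSPE1 moved with its partner but less far in all 4 comparisons. It had 404, 369 and 424 TPM in shMCART1 with MPP+, against 470, 521 and 532 TPM in shScramble with MPP+. Among untreated cells HSPE1 had 703, 738 and 501 TPM in shMCART1, against 914, 1062 and 945 TPM in shScramble. These groups did not overlap, with log2 changes of -0.35 ± 0.07 (limma adjusted p = 0.00221) with MPP+ and -0.61 ± 0.13 (limma adjusted p = 0.0152) without. It had 628, 657 and 598 TPM in oeMCART1 with MPP+, against 389, 436 and 397 TPM in oeNC with MPP+. Among untreated cells HSPE1 had 1160, 1186 and 1271 TPM in oeMCART1, against 834, 1054 and 879 TPM in oeNC. The log2 change was 0.62 ± 0.07 (limma adjusted p = 9.48e-06) with MPP+ and 0.39 ± 0.13 (limma adjusted p = 0.0312) without. The untreated overexpression call ended when any of 5 of the 6 libraries was left out (limma adjusted p = 0.0547 to 0.115, with log2 changes of 0.32 to 0.42), namely each oeMCART1 library and oeNC replicates 1 and 3. It also ended under median-of-ratios scaling (0.17, limma adjusted p = 0.136).

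The ratio of HSPD1 to HSPE1 within a library, of TPM and so per length, was not constant. It averaged 0.618 ± 0.024 in shMCART1 and 0.737 ± 0.015 in shScramble with MPP+, and 0.521 ± 0.065 and 0.648 ± 0.022 in these cells without it. It averaged 0.671 ± 0.060 in oeMCART1 and 0.598 ± 0.051 in oeNC with MPP+, where the groups overlapped, and 0.678 ± 0.036 and 0.440 ± 0.060 without. In the other 3 comparisons the groups did not overlap. Each of those 3 reached p = 0.1 in a two-sided exact permutation test, the smallest p that 3 against 3 libraries allow, and oeMCART1 with MPP+ gave an exact p = 0.3. HSPD1 and HSPE1 made up 41.08 to 52.68% of the summed TPM of the 10 genes in the group means with MPP+ and up to 70.41% without. Both genes have many annotated pseudogenes, 17 for HSPD1 and 26 for HSPE1, and they overlap each other on opposite strands in GENCODE 29. The sources used here do not say how the authors' counting divided such reads, and both levels are uncertain to that extent.

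HSPA9 encodes mortalin, the mitochondrial HSP70 that drives protein import and first folding. It had 178, 185 and 186 TPM in shMCART1 with MPP+, against 225, 239 and 243 TPM in shScramble with MPP+. Among untreated cells HSPA9 had 133, 167 and 117 TPM in shMCART1, against 188, 202 and 184 TPM in shScramble. It fell in both knockdown comparisons, by 0.36 ± 0.08 on the log2 scale with MPP+ (limma adjusted p = 0.00399) and by 0.47 ± 0.14 without (limma adjusted p = 0.0284). HSPA9 had 292, 265 and 241 TPM in oeMCART1 with MPP+, against 182, 185 and 155 TPM in oeNC with MPP+. Among untreated cells HSPA9 had 214, 220 and 219 TPM in oeMCART1, against 108, 160 and 139 TPM in oeNC. The log2 change was 0.61 ± 0.08 (limma adjusted p = 3.02e-05) with MPP+ and 0.70 ± 0.14 (limma adjusted p = 0.00495) without, and the groups did not overlap in any of the 4 comparisons. Its knockdown call in untreated cells ended without shScramble replicate 1 or 2 or shMCART1 replicate 1 or 3 (limma adjusted p = 0.0563 to 0.112).

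**Figure D1:**
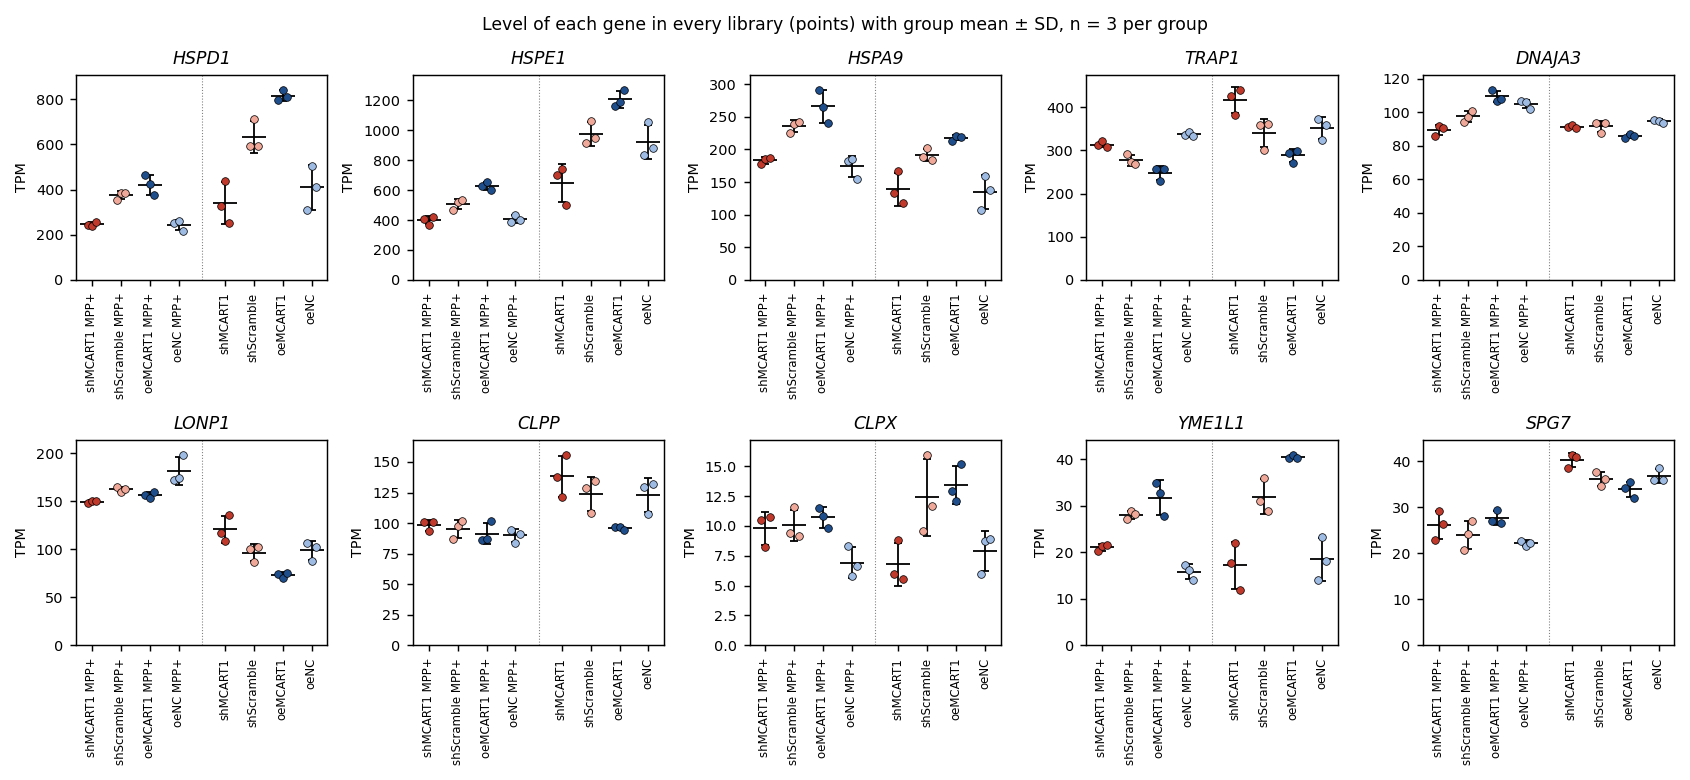
TPM of each of the 10 genes (vertical axes from 0) in every library (points), by group, with MPP+ on the left of the dotted line and untreated on its right; lines and bars give the mean ± SD of 3 libraries. HSPD1, HSPE1, HSPA9 and YME1L1 stand lower in shMCART1 than in shScramble and higher in oeMCART1 than in oeNC on both sides of the line, TRAP1 stands the other way, and LONP1 is higher on the MPP+ side.

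DNAJA3, a J-domain protein that delivers substrates to mitochondrial HSP70, was the steadiest of the 10, with group means from 85.91 to 109.6 TPM. With MPP+ it had 86.1, 91.8 and 90.4 TPM in shMCART1, against 94.5, 97.5 and 101.2 TPM in shScramble. It fell by 0.13 ± 0.04 on the log2 scale there (limma adjusted p = 0.0459), and this call ended without any of 5 of the 6 libraries, all but shScramble replicate 1 (limma adjusted p = 0.0615 to 0.164). It was also lost under median-of-ratios scaling (-0.016, limma adjusted p = 0.78) and quantile normalization (-0.099, limma adjusted p = 0.0722). The other 3 comparisons of DNAJA3 were not called as deposited, and their sign or call hung on the scaling. For oeMCART1 over oeNC with MPP+ the log2 change was 0.06 (limma adjusted p = 0.265), but -0.27 and called under median-of-ratios scaling (limma adjusted p = 0.000104) and -0.13 and called under quantile normalization (limma adjusted p = 0.0174). For untreated knockdown it was 0.00 (limma adjusted p = 0.981), and 0.20 under median-of-ratios scaling (limma adjusted p = 0.0761). For untreated overexpression it was -0.14 (limma adjusted p = 0.0627), and -0.37 under median-of-ratios scaling (limma adjusted p = 0.00713).

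TRAP1, the mitochondrial member of the HSP90 family, moved against the chaperonin and mortalin. It had 312, 321 and 308 TPM in shMCART1 with MPP+, against 292, 274 and 268 TPM in shScramble with MPP+. Among untreated cells TRAP1 had 425, 383 and 441 TPM in shMCART1, against 359, 302 and 361 TPM in shScramble. It rose in both comparisons, by 0.18 ± 0.05 with MPP+ (limma adjusted p = 0.015) and 0.29 ± 0.09 without (limma adjusted p = 0.0287) on the log2 scale. TRAP1 had 257, 230 and 257 TPM in oeMCART1 with MPP+, against 336, 343 and 333 TPM in oeNC with MPP+. Among untreated cells TRAP1 had 295, 272 and 300 TPM in oeMCART1, against 374, 325 and 360 TPM in oeNC. It fell by 0.45 ± 0.05 with MPP+ (limma adjusted p = 1.15e-05) and by 0.29 ± 0.09 without (limma adjusted p = 0.0201), and no pair of groups overlapped. Leaving out a library ended the TRAP1 call in 3 of 6 cases in each comparison but overexpression with MPP+. With MPP+ these were shScramble replicates 2 and 3 and shMCART1 replicate 2 (limma adjusted p = 0.0521 to 0.065). Without MPP+ they were shScramble replicate 2 and shMCART1 replicates 1 and 3 (limma adjusted p = 0.0769 to 0.111), and oeMCART1 replicate 2 and oeNC replicates 1 and 3 (limma adjusted p = 0.0637 to 0.0803).

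LONP1 encodes the Lon protease, the main ATP-driven protease of the matrix, which also degrades oxidized proteins. It had 149, 150 and 150 TPM in shMCART1 with MPP+, against 165, 160 and 163 TPM in shScramble with MPP+. Among untreated cells LONP1 had 117, 109 and 136 TPM in shMCART1, against 101, 86.3 and 102 TPM in shScramble. The groups did not overlap in either condition, but their order was opposite. With MPP+ the log2 change was -0.12 ± 0.05 and was not called (limma adjusted p = 0.0957), and without it LONP1 rose by 0.32 ± 0.10 (limma adjusted p = 0.0356). The untreated call ended without shScramble replicate 1 or 2 or shMCART1 replicate 1 or 3 (limma adjusted p = 0.0559 to 0.136).

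LONP1 had 156, 153 and 160 TPM in oeMCART1 with MPP+, against 172, 174 and 198 TPM in oeNC with MPP+. Among untreated cells LONP1 had 74.1, 70.4 and 75.3 TPM in oeMCART1, against 106, 87.4 and 103 TPM in oeNC. It fell in both, by 0.21 ± 0.05 with MPP+ (limma adjusted p = 0.00311) and by 0.42 ± 0.10 without (limma adjusted p = 0.0085). LONP1 overlaps RPL36 on the opposite strand in GENCODE 29. RPL36, a ribosomal protein gene, averaged 2338 TPM over the untreated libraries, so even a small share of its reads counted to LONP1 would bear on these levels, and the sources used here do not say whether the authors' counting used the strand.

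CLPP is the proteolytic chamber and CLPX the unfolding ATPase of the other matrix protease complex, ClpXP. CLPP had 86.0, 86.6 and 101.6 TPM in oeMCART1 with MPP+, against 94.4, 83.9 and 91.3 TPM in oeNC with MPP+. Among untreated cells CLPP had 96.9, 96.5 and 94.2 TPM in oeMCART1, against 130, 107 and 132 TPM in oeNC. The groups overlapped with MPP+, where the log2 change was 0.02 (limma adjusted p = 0.823) as deposited but -0.30 under median-of-ratios scaling (limma adjusted p = 0.00517). They did not overlap without it, where CLPP fell by 0.35 ± 0.11 (limma adjusted p = 0.0241). That call ended without any of 5 of the 6 libraries, all but oeNC replicate 2 (limma adjusted p = 0.0532 to 0.0895). In the knockdown comparisons CLPP groups overlapped, with log2 changes of 0.05 with MPP+ and 0.16 without (limma adjusted p = 0.674 and 0.276).

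CLPX was the least abundant of the 10. It had 10.5, 8.20 and 10.7 TPM in shMCART1 with MPP+, against 9.39, 11.6 and 9.20 TPM in shScramble with MPP+. Among untreated cells CLPX had 5.93, 8.82 and 5.57 TPM in shMCART1, against 9.61, 15.95 and 11.67 TPM in shScramble. The groups overlapped with MPP+ (log2 change -0.04 ± 0.13, limma adjusted p = 0.866, with the sign turned to 0.065 and 0.070 under median-of-ratios scaling and quantile normalization) and were separate without it, where CLPX fell by 0.78 ± 0.21 (limma adjusted p = 0.021). It had 11.5, 10.9 and 9.81 TPM in oeMCART1 with MPP+, against 8.32, 5.83 and 6.65 TPM in oeNC with MPP+. Among untreated cells CLPX had 12.9, 12.1 and 15.2 TPM in oeMCART1, against 5.98, 8.76 and 8.94 TPM in oeNC. It rose by 0.57 ± 0.13 with MPP+ (limma adjusted p = 0.00282) and by 0.71 ± 0.21 without (limma adjusted p = 0.0167). The call with MPP+ ended under median-of-ratios scaling (0.28, limma adjusted p = 0.0816) and quantile normalization (0.25, limma adjusted p = 0.11), and the untreated one under quantile normalization (0.43, limma adjusted p = 0.0506). The untreated calls ended without shScramble replicate 2 or shMCART1 replicate 1 or 3 for knockdown (limma adjusted p = 0.0587 to 0.0924), and without oeMCART1 replicate 3 or oeNC replicate 1 for overexpression (limma adjusted p = 0.0616 and 0.075).

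The ratio of CLPP to CLPX mRNA, again per length, was far above 1 in every group. It averaged 10.13 ± 1.07 in shMCART1 and 9.56 ± 1.34 in shScramble with MPP+, which overlapped (exact p = 0.5), and 21.64 ± 7.20 and 10.57 ± 3.41 in these cells without it, which did not. It averaged 8.59 ± 1.55 in oeMCART1 and 13.15 ± 1.60 in oeNC with MPP+, and 7.22 ± 0.91 and 16.23 ± 4.90 without, and neither pair overlapped. The exact permutation p for each of the 3 pairs without overlap was 0.1, the smallest possible. CLPP and CLPX have the highest and the lowest transcript GC content of the 10 genes, 62.1% and 41.8%, and changes followed GC content, as given below. With the GC trend removed neither gene was called in any of the 4 comparisons, and the ratio was not taken on that scale.

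YME1L1 and SPG7 encode subunits of the AAA proteases of the inner membrane: YME1L1 forms the complex that faces the intermembrane space, and SPG7, paraplegin, is part of the one that faces the matrix. YME1L1 had 20.2, 21.4 and 21.7 TPM in shMCART1 with MPP+, against 27.2, 28.9 and 28.3 TPM in shScramble with MPP+. Among untreated cells YME1L1 had 17.6, 22.1 and 11.9 TPM in shMCART1, against 31.0, 36.1 and 28.8 TPM in shScramble. It fell by 0.40 ± 0.09 with MPP+ (limma adjusted p = 0.00588) and by 0.89 ± 0.20 without (limma adjusted p = 0.0157), with no overlap. It had 35.0, 32.7 and 27.7 TPM in oeMCART1 with MPP+, against 17.3, 16.2 and 14.1 TPM in oeNC with MPP+. Among untreated cells YME1L1 had 40.4, 41.0 and 40.4 TPM in oeMCART1, against 14.0, 23.3 and 18.2 TPM in oeNC. It rose by 0.96 ± 0.09 with MPP+ (limma adjusted p = 4.76e-06) and by 1.12 ± 0.20 without (limma adjusted p = 0.00427). As deposited, these log2 changes were larger than those of the 9 other genes in the same comparisons, but the order hung on the setting. Without MPP+, HSPD1 was ahead of YME1L1 under quantile normalization (1.01 against 0.95) and with the GC trend described below removed (0.50 against 0.44). With MPP+, TRAP1 was farther from 0 under median-of-ratios scaling (-0.77 against 0.64 for YME1L1).

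SPG7 was called in 1 of the 4 comparisons as deposited, in overexpression with MPP+. It had 27.0, 29.5 and 26.5 TPM in oeMCART1 with MPP+, against 22.7, 21.5 and 22.3 TPM in oeNC with MPP+, groups that did not overlap. It rose by 0.31 ± 0.10 (limma adjusted p = 0.0178), a call that ended without oeMCART1 replicate 2 or oeNC replicate 2 (limma adjusted p = 0.0672 and 0.0529). The same change was -0.0098 under median-of-ratios scaling (limma adjusted p = 0.933) and 0.033 under quantile normalization (limma adjusted p = 0.779). As deposited, its log2 change was 0.12 (limma adjusted p = 0.379) in knockdown with MPP+, 0.15 (limma adjusted p = 0.124) in untreated knockdown and -0.12 (limma adjusted p = 0.215) in untreated overexpression. Both untreated changes were called under median-of-ratios scaling, at 0.35 (limma adjusted p = 0.0191) for knockdown and -0.34 (limma adjusted p = 0.0123) for overexpression.

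The counts of the 10 genes are read beside the shares of all genes tested. With MPP+ and knockdown, 1 gene rose and 5 fell, where 33.1% of 14895 genes were called in either direction, 10.8% higher and 22.2% lower. Without MPP+, 2 rose and 5 fell with knockdown, where 34.2% of 14703 genes were called, 8.64% higher and 25.6% lower. The groups of 7 and of 8 genes did not overlap, against 49.5% of all genes with MPP+ and 48.6% without. With overexpression and MPP+, 6 rose and 2 fell, where 60.9% of genes were called, 46.7% higher and 14.2% lower. Without MPP+, 5 rose and 3 fell with overexpression, where 48.2% were called, 33.5% higher and 14.7% lower. The groups of 8 and of all 10 genes did not overlap, against 64% of all genes with MPP+ and 62.4% without. The median log2 change of the 10 genes beside that of all genes was -0.12 beside -0.08 for knockdown with MPP+ and -0.24 beside -0.15 without it. For overexpression it was 0.44 beside 0.26 with MPP+ and 0.14 beside 0.16 without.

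TPM share out a fixed total, and the median over all genes shifted with the scaling. Median-of-ratios scaling moved it to 0.015 for knockdown with MPP+ and to 0.021 without, and to -0.011 for overexpression with MPP+ and to -0.026 without. The split of all calls then evened out. That of the 10 genes moved less for knockdown, and for overexpression it evened out too. For knockdown with MPP+, 2609 genes were higher and 2230 lower (1616 and 3308 as deposited), and of the 10 genes 1 was higher and 4 lower. For untreated knockdown, 2966 were higher and 2955 lower (1271 and 3764 as deposited), and of the 10 genes 3 were higher and 5 lower. For overexpression with MPP+, 3944 were higher and 4338 lower (6949 and 2118 as deposited), and of the 10 genes 4 and 4. For untreated overexpression, 3827 were higher and 3817 lower (4927 and 2155 as deposited), and of the 10 genes 4 and 5. HSPD1, HSPA9, YME1L1 and TRAP1 kept direction and call in all 4 comparisons under this scaling and under quantile normalization.

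HSPD1, HSPE1, HSPA9 and YME1L1 thus fell with knockdown and rose with overexpression in both conditions, and TRAP1 did the opposite, with limma adjusted p under 0.05 in all 4 comparisons for these 5 genes as deposited. How many of all genes were called in all 4 in this way was not counted. With the GC trend described below removed from each library, only HSPD1 of these 5 genes kept its call in all 4 comparisons. The knockdown calls without MPP+ are the least firm. Leaving out shScramble replicate 2 left 0 of the 10 genes and 2 of all genes called, and a fit of only the 6 libraries of shMCART1 and shScramble called 0 of all 14703 genes by limma. At an unadjusted p under 0.05 these limma fits held 5106 genes without that library and 5799 with only the 6 libraries, and 7 of the 10 genes each.

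**Figure D2:**
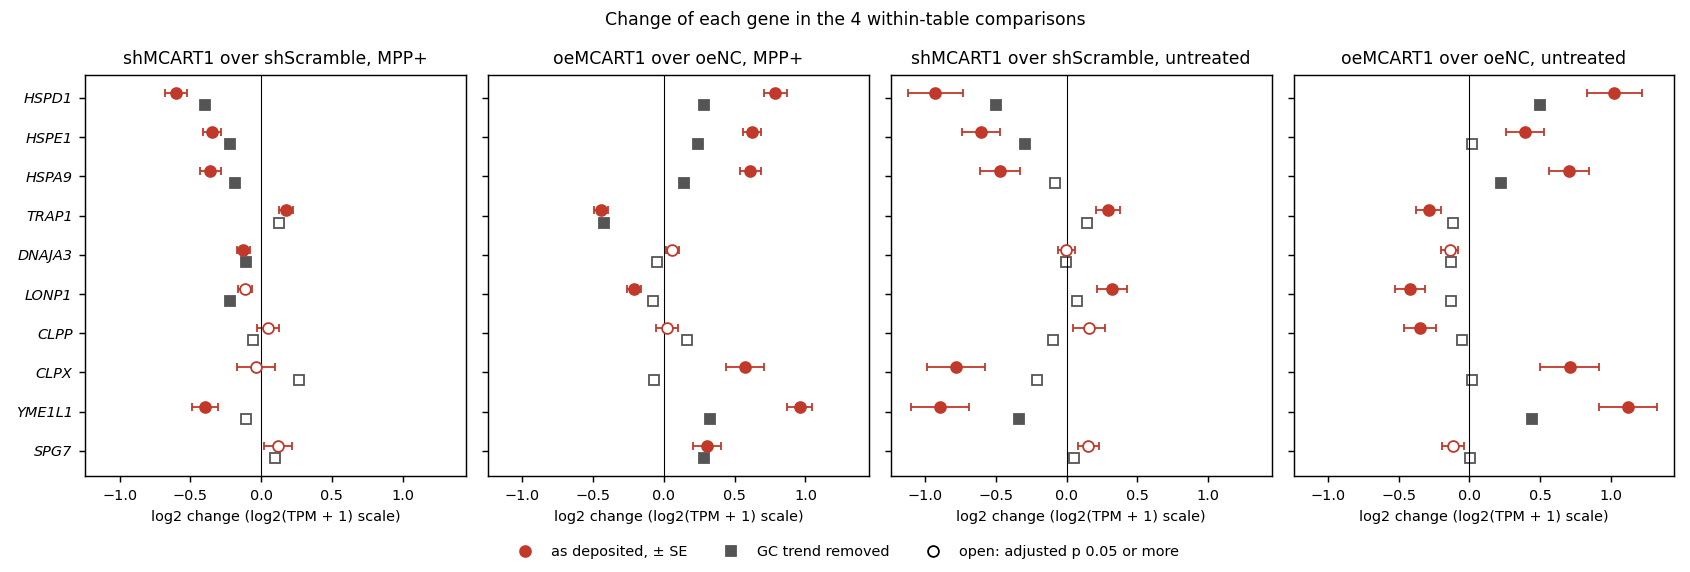
Change of each gene on the log2(TPM + 1) scale (horizontal axis) in the 4 comparisons within a condition; circles give the values as deposited ± SE, squares those after removal of a GC trend in each library, and open symbols have a limma adjusted p of 0.05 or more. HSPD1 keeps its direction and its call in all 4 panels on both scales, with squares nearer to 0 than circles.

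Across all genes the changes followed the GC content of the transcripts, and so did those of the 10. The median GC content of a gene's GENCODE 29 transcripts was 41.8% for CLPX, 42.1% for YME1L1, 44.8% for HSPD1, 45.5% for HSPA9 and 46.9% for HSPE1. It was 54.0% for DNAJA3, 56.6% for SPG7, 57.9% for TRAP1, 61.9% for LONP1 and 62.1% for CLPP, with a median of 50.2% over the genes tested without MPP+. Spearman's rho of the change with GC content across genes, which are not independent replicates, was 0.484 for knockdown with MPP+ and 0.777 without, and -0.603 for overexpression with MPP+ and -0.801 without. Over the 10 genes alone it was 0.612, 0.903, -0.806 and -0.939 in that order. The genes called in opposite directions to HSPD1 were thus also genes of higher GC content.

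With each library's GC trend removed, HSPD1 kept its direction and its call in all 4 comparisons. Its log2 change was then -0.40 for knockdown with MPP+ (limma adjusted p = 0.000195) and -0.50 without (limma adjusted p = 0.0162). For overexpression it was 0.28 with MPP+ (limma adjusted p = 0.000451) and 0.50 without (limma adjusted p = 0.0081). HSPE1 and HSPA9 remained lower with knockdown and higher with overexpression under MPP+ (-0.22 and -0.18, then 0.24 and 0.14 on the log2 scale). Without MPP+, HSPE1 remained called for knockdown alone (-0.30) and HSPA9 for overexpression alone (0.22). The untreated overexpression change of HSPE1 was then 0.0175 (limma adjusted p = 0.877). The untreated knockdown change of HSPA9 was -0.0806 (limma adjusted p = 0.376).

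YME1L1 remained higher with overexpression in both conditions (0.33 with MPP+, 0.44 without) and lower with untreated knockdown (-0.33), while its knockdown change with MPP+, -0.11, was no longer called (limma adjusted p = 0.173). CLPX and CLPP were called in none of the 4 comparisons after removal of the trend, and CLPX turned to -0.071 with overexpression under MPP+ and to 0.26 with knockdown under MPP+, and CLPP to -0.057 with knockdown under MPP+ and to -0.095 without. TRAP1 remained lower with overexpression under MPP+ (-0.42, limma adjusted p = 4.7e-05) and was not called in the other 3. LONP1 was then lower with knockdown under MPP+ (-0.22, limma adjusted p = 0.00115) and not called in the other 3 (limma adjusted p = 0.084 to 0.345). Under MPP+, SPG7 remained higher with overexpression (0.29) and DNAJA3 lower with knockdown (-0.11).

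**Figure D3:**
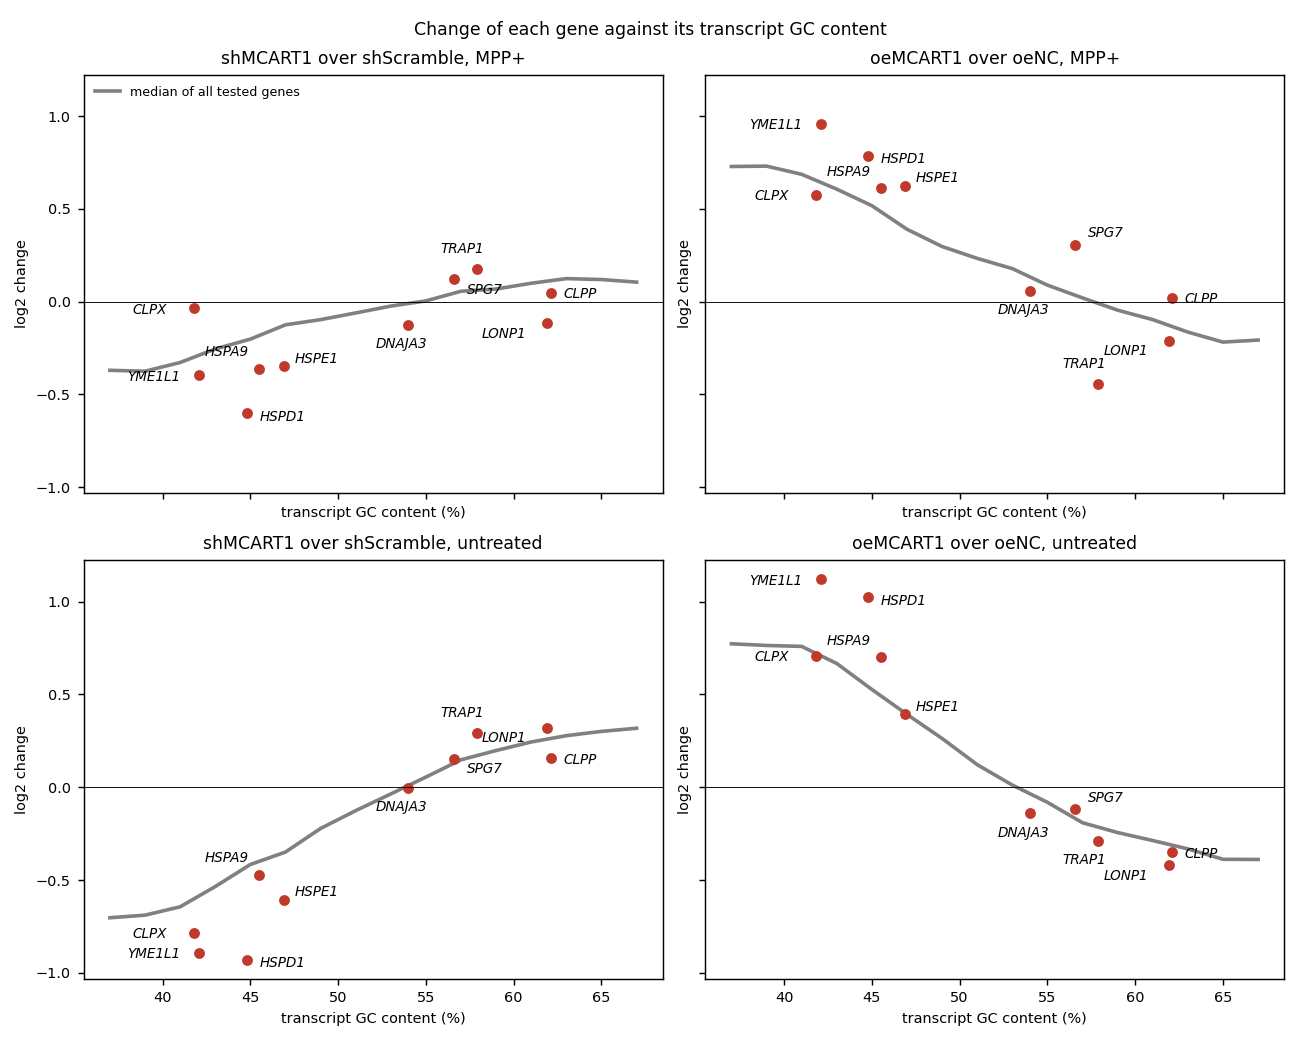
Log2 change of each gene (vertical axis) against the median GC content of its transcripts in percent (horizontal axis) in the 4 comparisons; the grey line joins medians of all tested genes in steps of 2 percentage points. The changes follow the slope of the grey line, and HSPD1 lies farther from 0 than the line at its GC content in all 4 panels, for untreated knockdown at -0.93 where the line is at -0.42 and for untreated overexpression at 1.02 where it is at 0.53.

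Whether the effect of a construct differed between the conditions was tested as the difference of the log2 changes, with MPP+ minus without. For knockdown, 1 of the 10 genes was called, against 4.49% of 13571 genes, of which 2.02% were higher and 2.48% lower. LONP1 was that gene, with a difference of -0.44 ± 0.12 (limma adjusted p = 0.0369) between -0.12 with MPP+ and 0.32 without. For overexpression, 2 were called, against 19.9% of genes, 14.1% higher and 5.87% lower. As deposited, these were SPG7 with 0.42 ± 0.12 (limma adjusted p = 0.0187) between 0.31 with MPP+ and -0.12 without, and DNAJA3 with 0.20 ± 0.07 (limma adjusted p = 0.0348) between 0.06 with MPP+ and -0.14 without. Under median-of-ratios scaling limma called 0 of the 10 genes in either difference, 4 for knockdown and 2 for overexpression being at an unadjusted p under 0.05, and LONP1 was at -0.53 (limma adjusted p = 0.0776). That scaling gave 1069 higher and 1258 lower genes for the overexpression difference, against 1909 and 796 as deposited. The differences of HSPD1, 0.33 ± 0.22 for knockdown and -0.24 ± 0.22 for overexpression, were not called (limma adjusted p = 0.369 and 0.517). CLPX had the largest difference for knockdown among the 10, 0.75 ± 0.26, which did not pass either (limma adjusted p = 0.0951). LONP1's call ended when any of 9 of the 12 libraries was left out (limma adjusted p = 0.0558 to 0.109), all but shScramble replicates 1 and 3 and shMCART1 replicate 2 of the untreated cells.

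Levels with MPP+ and without stand in tables that were normalized separately, so they are set side by side with no test. LONP1 and HSPA9 stood higher with MPP+ in all 4 kinds of cells, and HSPD1, HSPE1 and SPG7 lower, under each of the 3 scalings tried. The mean of LONP1 was 149.7 ± 1.1 TPM with MPP+ and 120.8 ± 13.9 TPM without in shMCART1, a ratio of 1.24, and 162.4 ± 2.5 and 96.4 ± 8.8 TPM in shScramble, a ratio of 1.69. It was 156.3 ± 3.3 TPM with MPP+ and 73.3 ± 2.6 TPM without in oeMCART1, a ratio of 2.13, and 181.4 ± 14.6 and 98.8 ± 10.0 TPM in oeNC, a ratio of 1.84. As deposited, every LONP1 value with MPP+ stood above every untreated value of the same cells. Under median-of-ratios scaling the values overlapped in shMCART1 (155.1 ± 2.8 with MPP+ and 126.3 ± 29.9 without).

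The ratio of the mean with MPP+ to the mean without was 1.22 to 1.32 for HSPA9. It was 0.516 to 0.725 for HSPD1, 0.442 to 0.616 for HSPE1 and 0.602 to 0.817 for SPG7. The 2 subunits of the chaperonin and the HSP70 that hands proteins to it thus stood on opposite sides of 1 in these ratios of means. HSPD1 and HSPE1 have 17 and 26 annotated pseudogenes and HSPA9 has 1, and the tables hold different sets of gene identifiers. Whether reads were divided alike in both tables was not tested. As deposited, single values with MPP+ and without overlapped for HSPA9 in oeNC and for HSPD1 in shMCART1. CLPX and YME1L1 stood higher with MPP+ in shMCART1, with ratios of 1.45 and 1.23, against 0.801 to 0.878 and 0.784 to 0.878 in the other cells as deposited, though median-of-ratios scaling gave 1.03 and 1.01 in oeNC. TRAP1 (0.753 to 0.956) and CLPP (0.711 to 0.954) were below 1 as deposited, but with median-of-ratios scaling TRAP1 reached 1.11 in oeNC and CLPP 1.03 in oeMCART1. The median ratio over all genes was 0.974 in shMCART1, 0.896 in shScramble, 0.895 in oeMCART1 and 0.845 in oeNC as deposited.

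**Figure D4:**
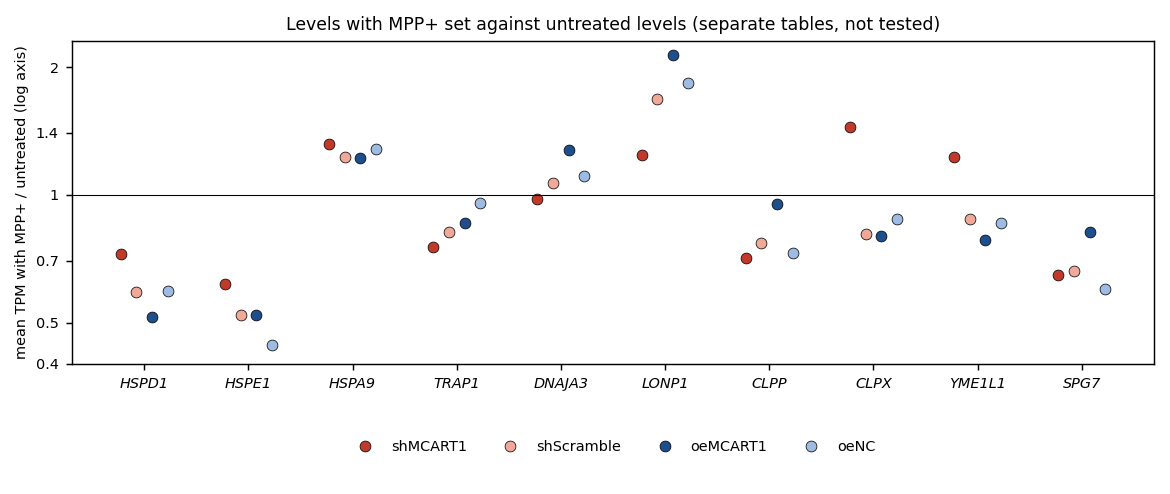
Mean TPM with MPP+ divided by mean TPM without (log axis) for each of the 10 genes in the 4 kinds of cells, as deposited; the line marks 1. LONP1 and HSPA9 lie above the line and HSPD1, HSPE1, TRAP1, CLPP and SPG7 below it in all 4, from tables normalized separately.

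Among the members themselves, the order of the levels was HSPE1 first in every group and CLPX last. HSPD1 was second in shScramble and oeMCART1 in both conditions and in untreated oeNC, and TRAP1 was second in shMCART1 in both conditions and in oeNC with MPP+. HSPD1 and TRAP1 overlapped in untreated shMCART1 and untreated oeNC, so their order there does not stand beyond the spread. The highest group mean was 3.35 times the lowest for HSPD1, 3.03 times for HSPE1, 2.56 times for YME1L1 and 2.48 times for LONP1, and 1.28 times for DNAJA3. Over the 24 libraries, with each table centred, log2 levels of HSPD1 correlated at r = 0.972 with HSPA9, 0.973 with YME1L1, 0.915 with HSPE1 and -0.903 with TRAP1. These coefficients describe libraries that share groups and GC trends, and carry no p. With each library's GC trend removed, they were 0.791 with HSPA9, 0.822 with YME1L1, 0.692 with HSPE1 and -0.619 with TRAP1, again with no p.

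Another 8146 genes were compared in the same way, without removal of the GC trend. Those most like HSPD1 were NARS1 (r = 0.991), PRMT3 (0.989) and G3BP2 (0.989). Those most like HSPA9 were USP7 (0.984), GARS1 (0.984) and NUP133 (0.982), and those most like CLPX were CCDC28A (0.954), SEC24B (0.944) and APIP (0.930). LONP1 was most like SHMT2 (0.971), the mitochondrial serine hydroxymethyltransferase, PTMS (0.970) and LSM2 (0.965).

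Other mitochondrial chaperones, proteases and their cofactors were read from a list of 21 genes, of which 20 were tested. With MPP+, 3 rose and 4 fell with knockdown and 11 rose and 3 fell with overexpression as deposited, and 3 rose and 9 fell with overexpression under median-of-ratios scaling. Without MPP+, 4 rose and 7 fell with knockdown and 6 rose and 6 fell with overexpression, against 6 and 3, and 3 and 7, under that scaling. Of all genes, 10.8% were called higher and 22.2% lower for knockdown with MPP+ and 8.64% and 25.6% without, as deposited, and 46.7% and 14.2% for overexpression with MPP+ and 33.5% and 14.7% without. OMA1, the inner-membrane protease that is activated by stress, averaged 13.06 TPM in shMCART1 and 22.55 TPM in shScramble without MPP+ (log2 change -0.79 ± 0.19, limma adjusted p = 0.0165), and 25.84 TPM in oeMCART1 and 12.40 TPM in oeNC (1.01 ± 0.19, limma adjusted p = 0.00427). GRPEL2, a nucleotide exchange factor of mitochondrial HSP70, rose with overexpression by 0.79 with MPP+ and 0.87 without. After removal of the GC trend the knockdown change of OMA1 was -0.19 and those of GRPEL2 were 0.19 and 0.24, none of them called (limma adjusted p = 0.153, 0.0611 and 0.18). CLPB, a disaggregase of the intermembrane space, averaged 46.55 TPM in shMCART1 and 28.85 TPM in shScramble with MPP+ (0.67 ± 0.09, limma adjusted p = 0.000307), and fell by 0.43 with untreated overexpression.

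DNAJC19, a J-domain protein of the import motor, fell by 0.52 with untreated knockdown and rose by 0.64 with overexpression under MPP+, but both signs turned after removal of the GC trend (0.094 and -0.043, limma adjusted p = 0.622 and 0.69). The processing peptidase subunit PMPCA rose by 0.21 with knockdown under MPP+ and fell by 0.37 with untreated overexpression, and its partner PMPCB fell by 0.65 with untreated knockdown (-0.13 without the GC trend, limma adjusted p = 0.233). The prohibitin PHB1 rose with knockdown by 0.15 with MPP+ and 0.16 without (0.16 without the GC trend, limma adjusted p = 0.0553 in untreated cells), and PHB2 fell by 0.18 with overexpression under MPP+. The peptidase PITRM1 rose by 0.47 there (0.15 under median-of-ratios scaling, limma adjusted p = 0.0666), and HSCB, a J-domain protein of iron-sulfur cluster assembly, fell by 0.33 with knockdown under MPP+. The overexpression change differed between the conditions for PMPCA (0.46), BCS1L (0.37) and PITRM1 (0.40), 3 of the 20 genes, against 19.9% of all genes. The first 2 of these calls ended under median-of-ratios scaling (limma adjusted p = 0.108 and 0.163), and that of PITRM1 under quantile normalization (limma adjusted p = 0.088). For knockdown limma called a difference in 0 of the 20, against 4.49% of all genes, and 4 were at an unadjusted p under 0.05.

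Of 9 factors of mitochondrial stress signalling, 2 rose and 3 fell with knockdown under MPP+ and 3 rose and 2 fell with overexpression under MPP+. Under median-of-ratios scaling these counts were 3 and 3 for knockdown, and 2 higher and 5 lower for overexpression. As deposited, 10.8% of all genes were called higher and 22.2% lower for knockdown under MPP+, and 46.7% and 14.2% for overexpression. The median log2 change of the list was -0.04 beside -0.08 of all genes for knockdown and 0.11 beside 0.26 for overexpression. CEBPB averaged 27.13 TPM in shMCART1 and 46.69 TPM in shScramble with MPP+ (log2 change -0.76 ± 0.09, limma adjusted p = 0.000224), and 56.73 TPM in oeMCART1 and 37.80 TPM in oeNC with MPP+ (0.58 ± 0.09, limma adjusted p = 0.000183). ATF5, a transcription factor of the mitochondrial unfolded protein response, averaged 14.88 TPM in shMCART1 and 23.45 TPM in shScramble with MPP+ (-0.62 ± 0.09, limma adjusted p = 0.000426), and 28.33 TPM in oeMCART1 and 15.31 TPM in oeNC with MPP+ (0.85 ± 0.09, limma adjusted p = 7.14e-06). ATF4, the main factor of the integrated stress response, moved the other way, by 0.19 with knockdown (0.054 and not called under quantile normalization, limma adjusted p = 0.417) and -0.24 with overexpression under MPP+. DDIT3, a factor induced by ATF4, fell by 0.31 with knockdown under MPP+, and EIF2AK1, the kinase that relays mitochondrial stress to eIF2, rose by 0.28 with overexpression under MPP+ as deposited but turned to -0.048 under median-of-ratios scaling (limma adjusted p = 0.46).

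Without MPP+, 2 of the 9 rose and 1 fell with knockdown, and 1 rose and 2 fell with overexpression, where 8.64% of all genes were called higher and 25.6% lower for knockdown and 33.5% and 14.7% for overexpression. Under median-of-ratios scaling 3 rose and 0 fell with knockdown by limma, 5 of the 9 being at an unadjusted p under 0.05 in either direction, and 0 rose and 4 fell with overexpression, again with 5. DELE1, which passes the mitochondrial stress signal to EIF2AK1, fell by 0.42 with knockdown, and UBL5 and the deacetylase SIRT3 rose by 0.36 and 0.40. With overexpression HSF1, the heat shock factor, and UBL5 fell by 0.46 and 0.26 and DDIT3 rose by 0.37. After removal of the GC trend the calls of UBL5 (0.47 and -0.40), SIRT3 (0.25), HSF1 (-0.13) and DDIT3 (0.22) ended (limma adjusted p = 0.0553 to 0.158), and that of DELE1 ended under median-of-ratios scaling (-0.23, limma adjusted p = 0.0543). The change with MPP+ minus that without was called for CEBPB (-0.99) and ATF4 (0.29) with knockdown. With overexpression it was called for CEBPB (0.91), ATF5 (0.98), DDIT3 (-0.50) and UBL5 (0.38), against 19.9% of all genes for overexpression and 4.49% for knockdown. The calls of ATF4 and UBL5 there ended under median-of-ratios scaling (0.19 and 0.27, limma adjusted p = 0.16 and 0.336).

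Of 10 cytosolic heat shock chaperones, 9 were tested with MPP+ and 10 without. With MPP+, 3 rose and 6 fell with knockdown and 6 rose and 1 fell with overexpression. Without MPP+, 1 rose and 6 fell with knockdown and 4 rose and 1 fell with overexpression. Under median-of-ratios scaling 3 rose and 4 fell with knockdown and 6 rose and 2 fell with overexpression under MPP+, and 1 rose and 4 fell and 4 rose and 2 fell without it. The median log2 change of this list beside that of all genes was -0.23 beside -0.08 for knockdown with MPP+ and -0.40 beside -0.15 without, and 0.66 beside 0.26 for overexpression with MPP+ and 0.17 beside 0.16 without. The shares of all genes called in these comparisons are those given above, 22.2% lower for knockdown and 46.7% higher for overexpression with MPP+, and 25.6% and 33.5% without. DNAJA1, a J-domain partner of HSP70, averaged 54.0 TPM in shMCART1 and 93.2 TPM in shScramble with MPP+ (log2 change -0.78 ± 0.08, limma adjusted p = 0.000123), and 149.6 TPM in oeMCART1 and 51.2 TPM in oeNC with MPP+ (1.53 ± 0.08, limma adjusted p = 2.79e-07). HSPH1, an HSP110 chaperone, moved as HSPD1 did in all 4 comparisons, by -0.76 and 1.77 with MPP+ and by -1.01 and 1.26 without (knockdown, then overexpression). HSP90AA1, the inducible HSP90, rose by 1.58 with overexpression under MPP+ and by 1.41 without, and fell by 1.37 with untreated knockdown. HSPA8, the constitutive HSP70, averaged 1008 TPM in oeMCART1 and 471.7 TPM in oeNC with MPP+ (1.09 ± 0.05, limma adjusted p = 5.3e-08).

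The small heat shock protein HSPB1 went the other way without MPP+, rising by 0.30 with knockdown and falling by 0.45 with overexpression (limma adjusted p = 0.0232 and 0.00427), changes that were 0.015 and -0.11 and not called after removal of the GC trend (limma adjusted p = 0.875 and 0.153). DNAJB1 fell by 0.34 with knockdown under MPP+. HSPA1B rose by 0.65 there, but its near-identical copy HSPA1A can share its reads. The difference between the conditions was called for DNAJB1 (0.51) and HSPA1B (0.67) with overexpression and by limma for 0 of the 9 with knockdown, 4 of them at an unadjusted p under 0.05. Over all genes these shares were 19.9% for overexpression and 4.49% for knockdown. Of the 11 untreated knockdown calls named from these lists, 11 ended without shScramble replicate 2, 7 without shMCART1 replicate 3 and 4 without shMCART1 replicate 1. Of the 11 untreated overexpression calls, 9 held without any 1 library, and those of UBL5 and DDIT3 ended in 5 of 6 cases. With MPP+, 11 of 12 knockdown calls, all but PHB1, and 12 of 12 overexpression calls held. Of the 9 named differences for overexpression, those of DDIT3, UBL5 and PITRM1 ended without any of 7, 8 and 4 of the 12 libraries. These lists, like the 10 genes, were read in the same libraries as the GC trend described above, and their medians were not tested.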

How the data were processed

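Per the labels, strand-specific libraries of poly(A) RNA were made from 24 samples, 12 with MPP+ and 12 without, 3 per group. What the authors deposited is TPM (transcript abundance with a fixed sum per library), as 1 table for each condition. No source used here names the aligner, the annotation or the use of the strand. TPM keep no depth, so no counting interval can be given. Entries with no gene identifier (42 of 36783 with MPP+, 25 of 63266 without) were left out. The tables share 31524 identifiers, 85.8% of the smaller one.

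Testing was on log2(TPM + 1), for genes reaching 1 TPM in 3 or more libraries of a table, with limma 3.58.1 (R 4.3.3; empirical Bayes with a variance trend). Each fit held the 4 groups of a table, or all 24 libraries for a difference between conditions. A gene was called at a Benjamini-Hochberg adjusted p under 0.05 over all genes. Ratios within libraries were compared with two-sided exact permutation tests. GC content and gene overlaps came from GENCODE 29, promoter sequences from RefSeq. GC content was known for 93.5% of genes tested with MPP+ and 96.3% without, and its trend was removed with a natural spline (5 degrees of freedom). The fit was tested on simulated data. Other steps used numpy 2.4.6, scipy 1.17.1, pandas 2.3.3 and matplotlib 3.10.9 under python 3.11.15.

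All 10 genes are named in every comparison, and of each further list up to 4 called genes with the smallest p. Genes alike were ranked by Pearson r among those averaging at least 5 TPM in both tables. The members and lists were chosen with earlier results of these data known. Alternatives changed the pseudocount (0.1), the filter (none, or 5 TPM), the scaling (median-of-ratios, quantile, without mitochondrial DNA genes), GC and length trends, library weights, the groups in the fit and a replicate block, and left out each library. For the further lists they were added after the data were seen. Some cell type markers are not reported here.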

Additional observations from a re-analysis of the deposited data

Results flagged for a closer look

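Changes that differed between the conditions, by limma's test of the difference (the change with MPP+ minus the change without), were those of 3 of the 10 genes. The 1 knockdown call stands beside 4.49% of 13571 genes called, and the 2 overexpression calls beside 19.9%, so the overexpression share is not a result about these genes as a set. LONP1 had a knockdown difference of -0.44 (limma adjusted p = 0.0369), where shMCART1 stood below shScramble with MPP+ and above it without. After removal of the GC trend it was -0.29 (limma adjusted p = 0.00464). DNAJA3 had an overexpression difference of 0.20 (limma adjusted p = 0.0348), and SPG7 one of 0.42 (limma adjusted p = 0.0187). After removal of the GC trend neither was called (0.08 and 0.28, limma adjusted p = 0.251 and 0.0633). TRAP1 was called instead, at -0.31 (limma adjusted p = 0.0054). Leaving out any of 9 of the 12 libraries ended the DNAJA3 call (limma adjusted p = 0.0524 to 0.0955), all but oeNC replicate 2 without MPP+, oeNC replicate 1 and oeMCART1 replicate 2 with MPP+. The SPG7 call ended without oeMCART1 replicate 3 of the untreated cells or oeMCART1 replicate 2 with MPP+ (limma adjusted p = 0.0514 and 0.0539). Under median-of-ratios scaling these 3 calls ended, with limma adjusted p = 0.0776 for LONP1, 0.506 for DNAJA3 and 0.0832 for SPG7.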

How the results depend on the processing

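Leaving out single libraries gave 4 to 6 of the 10 genes called for knockdown with MPP+, 0 to 7 for untreated knockdown, 7 to 8 for overexpression with MPP+, 4 to 8 for untreated overexpression, and 0 to 3 for either difference between the conditions. Over all genes the ranges were 3413 to 4600, 2 to 7247, 8143 to 8707 and 4005 to 7696 in the same order, 257 to 2559 for the knockdown difference and 2137 to 2748 for the overexpression difference. The lowest untreated knockdown counts, 0 of the 10 and 2 of all genes, came without shScramble replicate 2. Untreated knockdown called 3 of the 10 genes with no filter (1272 of all genes), 3 with the GC trend removed (1241), 3 with GC and length trends removed and 0 by limma in a fit of only the groups compared (0 of all, 5799 at an unadjusted p under 0.05, 7 of the 10 among them), against 7 (5035). Untreated overexpression called 3 with the GC trend removed (2305 of all) and 3 with GC and length trends removed, against 8 (7082). Library weights called 10110 and 11287 genes in these comparisons. The knockdown difference called 0 of the 10 by limma with no filter, under median-of-ratios scaling and with only the groups compared (3, 4 and 2 at an unadjusted p under 0.05), and 3 with library weights, against 1. Over all genes it called 119 with only the groups compared, 1130 with the GC trend removed and 4450 with weights, against 610. The overexpression difference called 0 by limma under median-of-ratios scaling and under quantile normalization (2 and 2 at an unadjusted p under 0.05), 1 with the GC trend removed and 1 with only the groups compared, against 2. The cause of these changes was not tested.

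The replicate block called 5 of the 10 genes for knockdown with MPP+ and 7 without, 8 for overexpression with MPP+ and 8 without, and 1 and 3 for the differences. Over all genes it moved the knockdown difference to 928, against 610, and no other count by over 1.5 times. Same-numbered libraries of compared groups correlated at -0.073 to 0.211 in their deviations, so the numbers were not taken to pair samples. For overexpression each library correlated best with its own number in both conditions, as a hint from the data and not the design, and for knockdown 1 of 6 pairs did.

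Signs turned for some changes, not all of them small. None was called as deposited except those of SPG7 and CLPX with overexpression under MPP+ and those of DNAJC19 and EIF2AK1 below. DNAJA3 in untreated knockdown was at 0.20 under median-of-ratios scaling, 0.017 under quantile normalization, 0.0075 with GC and length trends removed and -0.032 to 0.014 without single libraries. CLPP in knockdown with MPP+ was at -0.057 with the GC trend and -0.056 with GC and length trends removed, and at -0.015 to 0.095 without single libraries, and in untreated knockdown at -0.095 and -0.090 with these trends removed. CLPX in knockdown with MPP+ was at 0.065 under median-of-ratios scaling, 0.070 under quantile normalization, 0.26 and 0.27 with GC or both trends removed, and -0.099 to 0.076 without single libraries. In overexpression with MPP+, DNAJA3 was at -0.27, -0.13, -0.050 and -0.050 in these 4 settings, CLPP at -0.30 and -0.15 under the scalings and -0.056 to 0.063 without single libraries, CLPX at -0.071 and -0.073 with trends removed and SPG7 at -0.0098 under median-of-ratios scaling. SPG7 in untreated overexpression was at 0.0044 with the GC trend removed. For the knockdown difference, HSPA9 was at -0.10 and -0.11, CLPP at 0.038 and 0.034 and SPG7 at 0.044 and 0.021 with GC or both trends removed. SPG7 was at 0.067 with weights and -0.13 to 0.057 without single libraries, and HSPA9 at -0.0046 to 0.25. For the overexpression difference, HSPA9 lay at -0.22 to 0.064, CLPX at -0.24 to 0.032 and YME1L1 at -0.34 to 0.014 without single libraries. Of the further genes, DNAJC19 turned with trends removed, to -0.043 and -0.052 in overexpression with MPP+ and to 0.094 and 0.093 in untreated knockdown, and EIF2AK1 in overexpression with MPP+ to -0.082 and -0.083, and to -0.048 under median-of-ratios scaling. The median log2 ratio of MPP+ over untreated levels of the 10 genes moved to -0.16 in shScramble, -0.15 in oeMCART1 and 0.030 in oeNC under median-of-ratios scaling, against -0.30, -0.26 and -0.20 as deposited. A pseudocount of 0.1 and a filter of 5 TPM changed no call of the 10 genes. TPM keep no depth, so what depth limits cannot be stated.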
